A study of Mus musculus with 14 samples.

Results

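The 32 genes described here are markers and signalling genes of the bipolar, amacrine and horizontal cells of the mouse retina. They were taken by symbol from a table of 40123 genes and placed in 6 classes by the cell type each is known for: 7 genes of ON bipolar cells, 5 of other or of all bipolar cells, 7 of glycinergic and GABAergic amacrine cells, 3 shared by several inner retina types, 7 of cholinergic, dopaminergic and peptidergic amacrine cells, and 3 of horizontal cells. They were measured by bulk RNA sequencing of dissected retinal veins, in a study whose title concerns pressure, the barrier between blood and retina, and ganglion cell death in glaucoma. The 9 DBA/2J samples came from mice 9 months old, of an inbred strain that carries mutant Gpnmb and Tyrp1 alleles, sheds iris pigment and develops raised eye pressure. The 5 control samples came from DBA/2J-Gpnmb+/SjJ mice of the same age, which share the Tyrp1 allele, carry a working Gpnmb allele and are labelled normotensive. Mice of both strains had received sodium fluorescein at 0.33 mg/g into the peritoneum 5 minutes before death, and each sample pooled 4 veins of 1 mouse. The p-values therefore measure the spread between mice.

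Bipolar cells carry the photoreceptor signal to the inner retina. ON bipolar cells read glutamate with the metabotropic receptor mGluR6, whose G protein cascade keeps the cation channel TRPM1 closed in the dark. Amacrine cells shape the bipolar output with glycine, GABA, acetylcholine, dopamine or peptides, and horizontal cells feed back onto photoreceptor terminals.

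The libraries held neural as well as vascular RNA. Levels are given as scaled counts, the deposited values, which are estimated reads per gene divided by a factor for each library. The 32 genes together took 0.228 to 0.324% of the scaled counts of a DBA/2J library and 0.242 to 0.289% of a control library. All 10 pan-endothelial markers were detected, at 0.0827 to 0.285% in DBA/2J and 0.0752 to 0.107% in control libraries, and the 12 rod markers took 2.95 to 7.59% in DBA/2J and 2.84 to 5.42% in control libraries. The 8 lens markers, which are no part of a vein, took 0.00067 to 1.02% of DBA/2J libraries and 7.27 to 15.7% of control libraries. All 8 fell. Lens counts are part of the library totals, so they lowered every other percent more in control than in DBA/2J libraries. Percents without the lens counts were not computed. Gpnmb fell by 3.56 on the log2 scale (adjusted p = 4.35e-05, limma), and every DBA/2J library lay below every control. Estimated depth was 8949499 to 33851575 reads per library. Library numbers ran from 31 to 39 in DBA/2J and from 16 to 30 in the controls, so strain and library number cannot be told apart.

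Both genes of GABA synthesis, Gad1 and Gad2, and both glycine transporter genes, Slc6a9 and Slc6a5, were among those higher in DBA/2J veins. So were the mGluR6 gene Grm6 and its partner gene Nyx. The other genes of these classes did not pass, among them Slc32a1, Tfap2a, Tfap2b, Trpm1, Pcp2 and Gng13. The calcium buffer gene Calb2, the peptide gene Tac1 and the horizontal cell gene Onecut2 were lower. All 32 genes reached 1 scaled count in at least 5 libraries and were tested with limma among 29166 genes. At an adjusted p under 0.05, 8 of the 32 (25.0%) rose, namely Grm6, Nyx, Grik1, Slc6a9, Slc6a5, Gad1, Gad2 and Slc5a7, against 12.1% of all genes tested. Another 3 (9.38%) fell, against 7.2% of all genes, and 21 did not pass. Among the 14098 protein-coding genes with a mean at least that of the lowest of the 32, 21.7% rose and 9.09% fell, so the shares of the 32 were near this background. Their median difference, DBA/2J minus control, was 0.08 on the log2 scale, against 0.05 over all genes tested and 0.19 over those coding genes. In bulk tissue, a change in the number of cells of a type and a change in RNA per cell cannot be told apart. With the dependence on transcript length and GC content taken out of every library, 4 of the 32 rose (Nyx, Slc6a9, Gad1 and Slc5a7). Another 2 fell (Tfap2b and Onecut2), and of 28508 genes 8.73% rose and 5.16% fell.

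**Figure D1:**
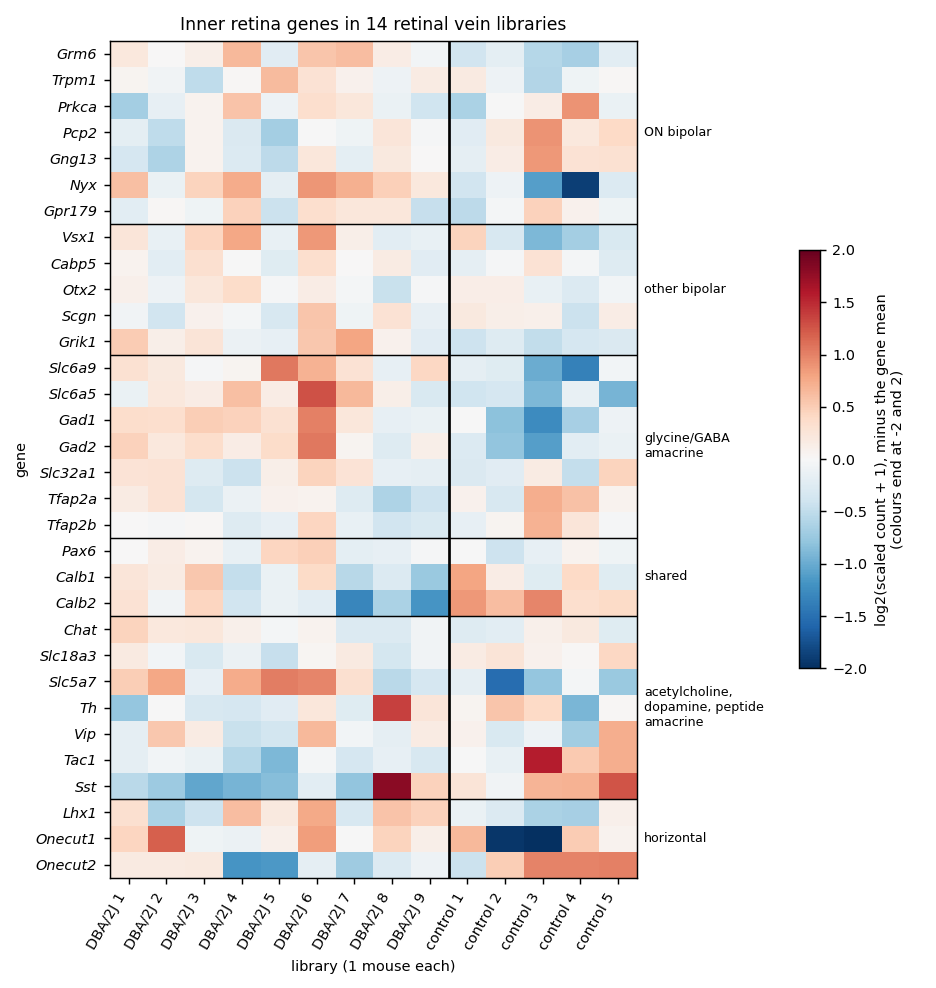
Scaled count of each of the 32 genes (down the page, by class) in 9 DBA/2J and 5 control libraries (across), as log2(scaled count + 1) minus the gene's mean over all 14 libraries; red is above and blue below that mean. Nyx, Slc6a9, Gad1, Gad2 and Slc5a7 are mostly red in DBA/2J and blue in control libraries, and Calb2 shows the opposite pattern.

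**Figure D2:**
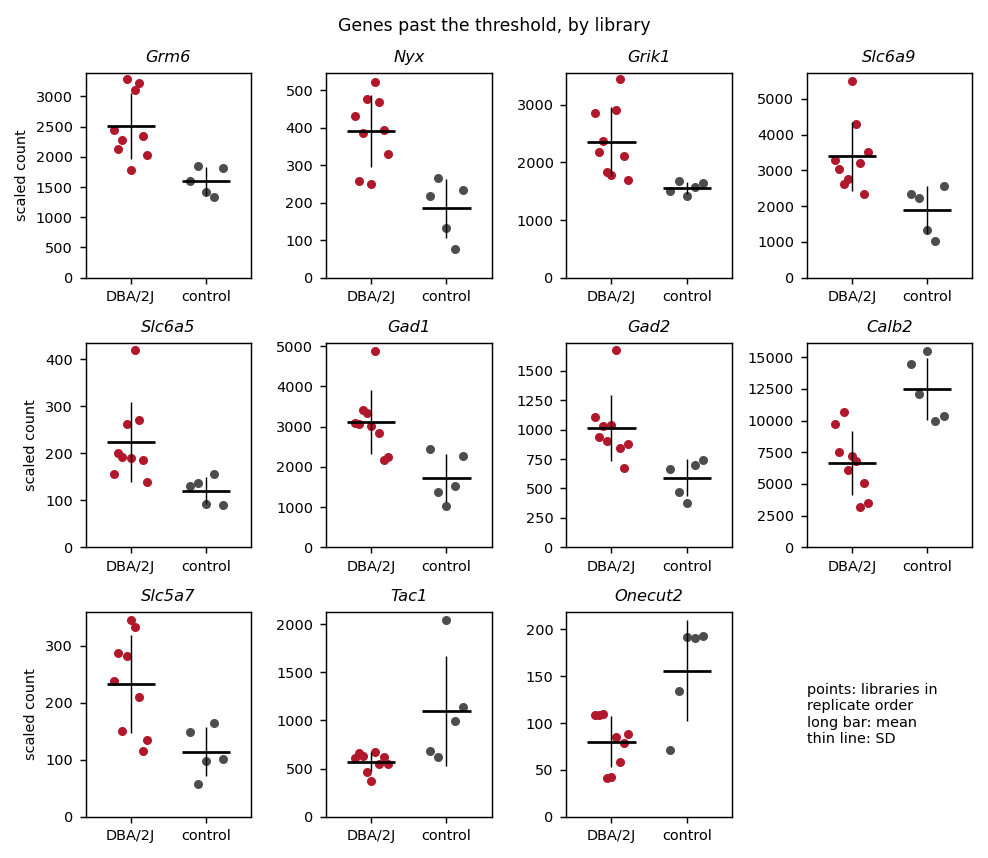
Scaled counts of the 11 genes past the threshold, with 1 point per library, the mean as a long bar and the SD as a thin line (n = 9 DBA/2J, n = 5 control). All 9 DBA/2J points of Grik1 lie above its 5 control points, and the groups overlap for the other 10 genes.

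In the ON bipolar class, 2 of 7 genes rose and 5 did not pass, where 12.1% of all genes and 21.7% of the coding genes above rose. Grm6 encodes mGluR6 itself (ENSMUSG00000000617.14, forward strand of chromosome 11, 50850685 to 50866208 in GRCm38). Its scaled count ran from 1789 through a median of 2341 to 3285 in DBA/2J libraries, against 1608, 1840.0, 1419.7, 1329 and 1818 in control samples 1 to 5. Only DBA/2J sample 5, the lowest of its group, fell within the control range. Grm6 rose by 0.63 on the log2 scale (SE 0.16, adjusted p = 0.0116, limma), with means of 2511 ± 553 in DBA/2J (SD, n = 9) and 1603 ± 230 in control veins (SD, n = 5).

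Nyx encodes nyctalopin, a leucine-rich repeat protein that holds TRPM1 at the bipolar dendrite (ENSMUSG00000051228.5, forward strand of chromosome X, 13466110 to 13489313). Scaled counts of Nyx were lowest at 249.8, median 394 and highest 523 in DBA/2J, against 218, 265, 131, 76.0 and 235 in control samples 1 to 5. DBA/2J samples 2 and 5 lay below control sample 2, and the other 7 lay above every control. Nyx rose by 1.17 (SE 0.27, adjusted p = 0.00702, limma), the largest rise among the 32 genes, and by 0.81 with the length and GC trend removed (adjusted p = 0.0386). Grm6 then stood at 0.34 (adjusted p = 0.139).

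The promoters of Grm6 and Nyx are shown because both act in 1 complex and passed as higher, unlike the other 5 genes of the class. Each is 300 bases of RefSeq GRCm38.p6, 250 before and 50 after the annotated start, on the forward strand at chr11:50850435-50850734 and chrX:13460840-13461139. The RefSeq start of Nyx lies upstream of the GENCODE M21 gene. Capitals would mark TAATCC or its reverse complement GGATTA, the core motif of the bipolar and photoreceptor homeodomain factors OTX2 and CRX, and these windows hold neither.
Grm6: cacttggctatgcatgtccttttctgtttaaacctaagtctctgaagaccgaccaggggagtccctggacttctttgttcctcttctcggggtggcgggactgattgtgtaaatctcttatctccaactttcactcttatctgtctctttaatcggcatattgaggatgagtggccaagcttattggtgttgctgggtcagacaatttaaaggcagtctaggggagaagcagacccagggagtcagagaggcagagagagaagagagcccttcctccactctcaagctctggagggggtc
Nyx: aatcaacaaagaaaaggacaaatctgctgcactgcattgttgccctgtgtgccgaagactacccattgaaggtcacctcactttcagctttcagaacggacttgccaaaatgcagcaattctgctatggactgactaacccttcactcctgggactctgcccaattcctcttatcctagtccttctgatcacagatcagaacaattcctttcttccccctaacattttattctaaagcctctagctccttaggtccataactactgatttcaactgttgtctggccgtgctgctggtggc

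The other 5 genes of the class did not pass. Trpm1, the channel gene, had 2949, 4383 and 6521 scaled counts as lowest, median and highest in DBA/2J, against 4761, 3912, 2799, 3978 and 4252 in control samples 1 to 5. The groups overlapped widely (0.18, SE 0.17, adjusted p = 0.500). Gng13, the G protein gamma subunit gene of the cascade, had 2842, 3789 and 5108 in DBA/2J, against 3846, 4802, 7932, 5292 and 5347 in the controls (-0.44, adjusted p = 0.0912). Pcp2, a modulator of Go signalling abundant in rod bipolar cells, had 3292, 4958 and 6218 in DBA/2J, against 4509, 6017, 9827, 6079 and 6906 in the controls (-0.46, adjusted p = 0.0823). For both, control sample 3 was the highest of the 14 libraries, and without control sample 1 both passed as lower (adjusted p = 0.0380 and 0.0280). Gpr179, the scaffold that docks the RGS proteins, ranged from 1398 to 2651 in DBA/2J and from 1341 to 2638 in the controls. Prkca, the protein kinase C alpha gene used to stain rod bipolar cells, ranged from 532 to 1262 in DBA/2J and from 545 to 1583 in the controls. Their differences were 0.03 and -0.08 (adjusted p = 0.925 and 0.836).

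Grm6 and Pcp2 are both rod bipolar genes, and their balance differed between the groups. The log2 ratio of Grm6 to Pcp2 was -0.93 ± 0.35 in DBA/2J libraries (SD, n = 9), between -1.41 and -0.39, and -2.02 ± 0.50 in control libraries (SD, n = 5), between -2.79 and -1.49. No DBA/2J library reached the control range, which held for no other gene pair examined. The pairs were picked by hand, and the share of all gene pairs that separate in this way was not computed. Nor was the ratio computed with the length and GC trend removed. The ratios of Grm6 to Trpm1, of Grm6 to Gpr179 and of Nyx to Trpm1 overlapped between the groups. The longest annotated transcript is 4330 nucleotides for Grm6 and 1606 for Pcp2. With the length and GC trend removed, Grm6 stood at 0.34 and Pcp2 at -0.24, and neither passed (adjusted p = 0.139 and 0.299, limma). Summed scaled counts of the 7 ON bipolar genes were 0.108 ± 0.0104% of the library total in DBA/2J and 0.105 ± 0.0160% in control veins (SD, n = 9 and n = 5). The larger lens share of the control totals lowered the control percent, so the order of these 2 means is not settled.

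In the class of other and shared bipolar genes, 1 of 5 rose, where 12.1% of all genes and 21.7% of the coding genes above rose. Grik1, the kainate receptor subunit through which OFF bipolar cells sense glutamate (ENSMUSG00000022935.16, reverse strand of chromosome 16, 87895900 to 88290265), had 1701, 2177 and 3446 scaled counts as lowest, median and highest in DBA/2J. The control samples held 1498, 1679, 1413, 1581 and 1637. Grik1 was the 1 gene of the 32 with all 9 DBA/2J libraries above all 5 controls, a pattern that 2.91% of all genes tested showed, and 0 of the 32 showed the opposite pattern (2.31% of all genes). The rise was 0.56 (SE 0.16, adjusted p = 0.0247, limma), which missed the threshold when control sample 3 was left out (adjusted p = 0.0640) and when the length and GC trend was removed (0.29, adjusted p = 0.232).

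Otx2, a homeodomain factor of bipolar cells, photoreceptors and pigment epithelium, had 1932, 2582 and 3368 in DBA/2J, against 2869, 2859, 2371, 2159 and 2536 in the controls. Cabp5, a calcium-binding protein gene of rod bipolar and several cone bipolar types, had 1746, 2086 and 2618 in DBA/2J, against 1815, 2023, 2525, 2007 and 1734 in the controls. Scgn, secretagogin, another calcium-binding protein of cone bipolar cells, had 413, 515 and 794 in DBA/2J, against 622, 587, 581, 401 and 603 in the controls. The groups overlapped for all 3 genes, and the log2 differences were 0.07, 0.07 and -0.04 (adjusted p = 0.776, 0.769 and 0.883). Vsx1, a homeobox gene of cone bipolar cells, ranged from 353 to 746 in DBA/2J and from 219 to 561 in the controls (0.55, adjusted p = 0.106). Control sample 1 held that highest control value, and without it Vsx1 passed as higher (0.75, adjusted p = 0.0235).

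The class of glycinergic and GABAergic amacrine genes held the most rises, 4 of 7, where 12.1% of all genes and 21.7% of the coding genes above rose. With the length and GC trend removed, only Gad1 and Slc6a9 of these 4 still passed. Both glutamate decarboxylase genes rose. Gad1 encodes GAD67 (ENSMUSG00000070880.10, forward strand of chromosome 2, 70553072 to 70602014). Its scaled counts were 2182.2, 3067 and 4894 as lowest, median and highest in DBA/2J, against 2436, 1379.8, 1019, 1534 and 2263 in control samples 1 to 5. DBA/2J samples 8 and 9 lay below control sample 1, and the other 7 lay above all controls. Gad1 rose by 0.89 (SE 0.21, adjusted p = 0.00791, limma), with means of 3123 ± 793 in DBA/2J and 1726 ± 602 in control veins (SD, n = 9 and n = 5).

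Gad2 encodes GAD65 (ENSMUSG00000026787.3, forward strand of chromosome 2, 22622205 to 22693874). Its scaled counts were 675, 936 and 1674 in DBA/2J, against 669, 467, 378, 699.5 and 742 in the controls. DBA/2J sample 8 was the 1 DBA/2J library within the control range. The rise was 0.78 (SE 0.20, adjusted p = 0.0123, limma). With the length and GC trend removed, Gad1 stood at 0.64 (adjusted p = 0.0276) and Gad2 at 0.43 (adjusted p = 0.0884).

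The promoters of the 2 GABA-synthesizing genes are shown because these genes make the same product and rose together. They lie on the forward strand at chr2:70561879-70562178 and chr2:22622077-22622376, again RefSeq GRCm38.p6, 250 bases before and 50 after the start. The whole Gad1 window lies inside the GENCODE M21 gene, downstream of the gene start at 70553072. That of Gad1 holds 1 match, in capitals, and that of Gad2 holds 0.
Gad1: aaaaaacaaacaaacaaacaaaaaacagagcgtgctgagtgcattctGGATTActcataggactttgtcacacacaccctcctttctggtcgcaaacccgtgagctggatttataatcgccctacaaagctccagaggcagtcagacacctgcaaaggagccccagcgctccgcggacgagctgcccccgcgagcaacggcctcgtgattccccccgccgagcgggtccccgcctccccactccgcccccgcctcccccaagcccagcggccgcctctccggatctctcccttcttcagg
Gad2: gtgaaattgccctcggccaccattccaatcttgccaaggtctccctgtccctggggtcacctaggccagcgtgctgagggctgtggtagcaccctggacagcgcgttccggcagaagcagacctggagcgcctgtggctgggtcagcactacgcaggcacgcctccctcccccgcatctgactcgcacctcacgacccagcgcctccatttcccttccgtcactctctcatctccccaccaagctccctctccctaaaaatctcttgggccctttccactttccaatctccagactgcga
Over the 28 genes of the 32 with a RefSeq promoter, 5 of 41 promoters (12.2%) held TAATCC or GGATTA, those of Trpm1, Cabp5, Otx2, Slc6a5 and Gad1, against 7.06% of 32851 promoters of the same length. A match describes letters and not a bound site.

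Both glycine transporter genes rose as well. Slc6a9 encodes GLYT1, which takes up glycine (ENSMUSG00000028542.17, forward strand of chromosome 4, 117834506 to 117875198), and had 2348, 3215 and 5493 scaled counts as lowest, median and highest in DBA/2J, against 2339.8, 2238, 1324, 1033 and 2551 in the controls. DBA/2J sample 8 lay below control sample 5, and the other 8 lay above all controls. Its rise was 0.88 (SE 0.23, adjusted p = 0.0127, limma), and 0.74 with the length and GC trend removed (adjusted p = 0.0256). Slc6a5 encodes GLYT2, a transporter best known from glycinergic terminals of the hindbrain and spinal cord (ENSMUSG00000039728.15, forward strand of chromosome 7, 49910146 to 49963856). Its scaled counts were low, at 139, 191 and 418 in DBA/2J, against 131, 136, 91.4, 155 and 89.6 in the controls. Slc6a5 rose by 0.85 (SE 0.24, adjusted p = 0.0211, limma), a call that ended when control sample 3 (adjusted p = 0.0636) or 5 (adjusted p = 0.0537) was left out and when the trend was removed (0.42, adjusted p = 0.226).

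The vesicular transporter gene Slc32a1, which loads both GABA and glycine into vesicles, had 171, 249 and 312 scaled counts in DBA/2J, against 187, 196, 257, 164 and 311 in the controls. The groups overlapped throughout (0.12, SE 0.19, adjusted p = 0.712). Tfap2a, the gene of a transcription factor of amacrine cells, had 84.6, 121 and 161 in DBA/2J, against 139, 105, 218, 196 and 138 in the controls (-0.36, adjusted p = 0.262). Its relative Tfap2b had 919, 1079 and 1615 in DBA/2J, against 1069.5, 1246, 1941, 1416 and 1177 in the controls (-0.25, adjusted p = 0.285). With the length and GC trend removed, Tfap2b passed as lower (-0.65, adjusted p = 0.0202). Summed over the 7 genes, the class took 0.0524 ± 0.00967% of the scaled counts in DBA/2J (SD, n = 9), between 0.0392 and 0.0699%, and 0.0308 ± 0.00568% in control veins (SD, n = 5), between 0.0236 and 0.0392%. Gad1 and Slc6a9 made up most of that sum.

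Of the 3 genes shared by inner retina types, 1 fell, where 7.2% of all genes and 9.09% of the coding genes above fell. Calb2 encodes calretinin, a calcium buffer of many amacrine cells and of ganglion cells (ENSMUSG00000003657.9, reverse strand of chromosome 8, 110137502 to 110168210). Its scaled counts were 3184, 6838 and 10647 as lowest, median and highest in DBA/2J, against 14428, 12072, 15521, 9970.4 and 10322 in control samples 1 to 5. DBA/2J sample 3 was the 1 DBA/2J library above the lowest control. Calb2 fell by 0.99 (SE 0.26, adjusted p = 0.0126, limma), with means of 6638 ± 2527 in DBA/2J and 12463 ± 2458 in control veins (SD, n = 9 and n = 5).

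Some retinal ganglion cell markers were lower in the same libraries as Calb2. Of 11 ganglion markers, 3 fell and 8 did not pass, where 7.2% of all genes and 9.09% of the coding genes above fell. Their summed scaled counts ran from 4027 to 25836 in DBA/2J libraries and from 17847 to 23046 in control libraries. The sums of DBA/2J samples 1 and 3, at 23870 and 25836, lay above every control. Pou4f2, a defining factor of these cells, was at 0 in DBA/2J sample 7. Sncg, the gamma-synuclein gene, fell by 1.42 (adjusted p = 0.00356, limma), and the factor gene Pou4f1 stood at -1.94 (adjusted p = 0.0594). Slc17a6 and Nefl, also on this list, differed little, at -0.18 and -0.09 (adjusted p = 0.827 and 0.903). DBA/2J samples 7 and 9 were the lowest 2 libraries for Calb2, Sncg and Pou4f1. With the mean of the ganglion markers as a covariate, added after the data were seen, the difference of Calb2 was -0.40 (adjusted p = 0.137). In that fit Gad1, Gad2 and Slc5a7 alone of the 11 genes still passed. Over all genes it lowered the number passing from 5619 to 2633, so a lost call was not particular to Calb2. The cause of the fall of Calb2 was not tested. With the length and GC trend removed, Calb2 was at -0.70 (adjusted p = 0.106).

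**Figure D3:**
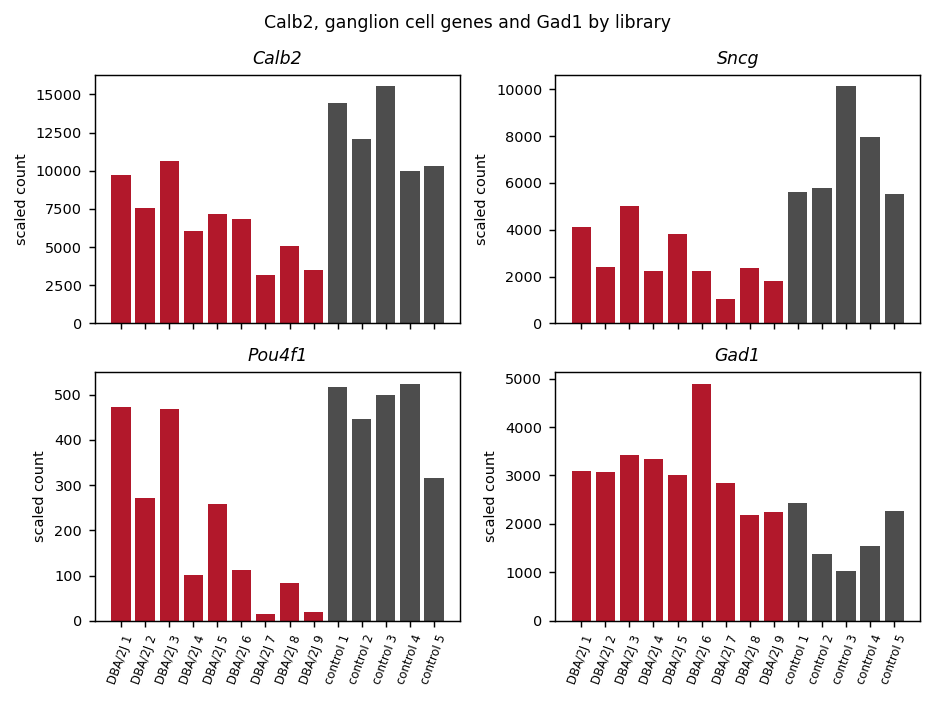
Scaled counts per library of Calb2, of the ganglion cell genes Sncg and Pou4f1, and of Gad1, in DBA/2J samples 1 to 9 (red) and control samples 1 to 5 (grey). Calb2, Sncg and Pou4f1 are lowest in DBA/2J samples 7 and 9, whereas Gad1 is lowest in control sample 3 and highest in DBA/2J sample 6.

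Pax6, the homeobox gene of amacrine, horizontal and ganglion cells that is also active in lens, had 3799, 4391 and 6064 scaled counts in DBA/2J, against 4325, 3285, 3893, 4608 and 4126 in the controls (0.19, adjusted p = 0.382). Calb1 encodes calbindin, the classical stain of horizontal cells that also marks amacrine types. It had 148, 225 and 359 in DBA/2J, against 426, 273, 209, 327 and 209 in the controls (-0.27, adjusted p = 0.468). Neither passed, and both overlapped between the groups.

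Among the cholinergic, dopaminergic and peptidergic amacrine genes, 1 of 7 rose and 1 fell. Of the coding genes above, 21.7% rose and 9.09% fell. The 3 genes of starburst amacrine cells, the acetylcholine neurons of the retina, did not move as 1 group. Slc5a7 encodes the choline transporter that feeds acetylcholine synthesis (ENSMUSG00000023945.7, reverse strand of chromosome 17, 54273590 to 54299034). Its scaled counts were 116, 238 and 345 in DBA/2J, against 149, 57.9, 98.3, 165 and 100.6 in the controls. DBA/2J samples 3, 8 and 9 fell within the control range, and the other 6 lay above it. The rise was 1.02 (SE 0.30, adjusted p = 0.0244, limma) and 0.84 with the length and GC trend removed (adjusted p = 0.0438), and it was lost without control sample 2 (0.80, adjusted p = 0.0769) or 3 (0.99, adjusted p = 0.0594).

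Slc18a3 encodes the vesicular acetylcholine transporter and had 312, 408 and 488 scaled counts in DBA/2J, against 480.1, 511, 455, 436 and 575 in the controls (-0.29, adjusted p = 0.158). Chat, the choline acetyltransferase gene, ranged from 78.7 to 131 in DBA/2J and from 79.999 to 109.9 in the controls (0.12, adjusted p = 0.697). Slc18a3 lies inside the Chat gene on the same strand, so how reads were split between them is uncertain. The log2 ratio of Slc5a7 to Slc18a3 was -0.87 ± 0.59 in DBA/2J (SD, n = 9) and -2.19 ± 0.69 in control libraries (SD, n = 5), with overlap.

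Tac1, the substance P precursor gene (ENSMUSG00000061762.12, forward strand of chromosome 6, 7554879 to 7565834), had 372, 608 and 675 scaled counts as lowest, median and highest in DBA/2J, against 688, 624, 2041, 997 and 1145 in the controls. DBA/2J samples 2, 3 and 6 lay above control sample 2, and control sample 3 stood far above the other libraries. Tac1 fell by 0.83 (SE 0.23, adjusted p = 0.0178, limma), and did not pass when control sample 3 was left out (-0.58, adjusted p = 0.0555) or when the length and GC trend was removed (-0.60, adjusted p = 0.0839).

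Sst, the somatostatin gene, had 158, 199 and 1148 in DBA/2J, against 394, 313, 526, 531 and 783 in the controls. The highest value was DBA/2J sample 8. Over all libraries Sst stood at -0.88 (SE 0.38, adjusted p = 0.119), and without that library it passed as lower at -1.14 (adjusted p = 0.00697). Vip, the vasoactive intestinal peptide gene, had 252, 328 and 535 in DBA/2J, against 365, 278, 319.7, 209.8 and 564 in the controls (0.09, adjusted p = 0.83). Th, tyrosine hydroxylase of the dopaminergic amacrine cells, ranged from 80.2 to 357 in DBA/2J, again highest in sample 8, and from 73.3 to 203 in the controls (-0.03, adjusted p = 0.953).

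Of the 3 horizontal cell genes, 1 fell, where 7.2% of all genes and 9.09% of the coding genes above fell. Lhx1 and Onecut1 had the lowest mean scaled counts of the 32. Onecut2 encodes a transcription factor of horizontal and ganglion cells (ENSMUSG00000045991.19, forward strand of chromosome 18, 64340020 to 64400987), and had 41.7, 84.9 and 110.1 scaled counts in DBA/2J, against 70.9, 135, 192, 191 and 193 in the controls. Control sample 1 was the 1 control within the DBA/2J range. Onecut2 fell by 0.95 (SE 0.31, adjusted p = 0.0384, limma) and by 0.96 with the length and GC trend removed (adjusted p = 0.0363). The call was lost with the mean of the ganglion markers as a covariate (-0.76, adjusted p = 0.198) and without any 1 of control samples 2 to 5 or DBA/2J samples 4 to 7, with adjusted p between 0.0508 and 0.105.

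Its paralog Onecut1 had 36.98, 43.5 and 93.7 in DBA/2J, against 63.6, 9.75, 8.08, 57.6 and 42.4 in the controls (0.90, SE 0.45, adjusted p = 0.174). The controls split into 3 libraries within the DBA/2J range and control samples 2 and 3 far below it. Lhx1, the LIM homeobox gene that places horizontal cells in their layer, had 18.5, 36.8 and 50.2 in DBA/2J, against 26.5, 24.0, 18.5, 18.1 and 31.4 in the controls (0.49, adjusted p = 0.288). Estimated reads were as few as 6.66 for Onecut1 and 15.2 for Lhx1 in a library, so counting error weighed most on these genes. The 3 genes together took 0.000968 ± 0.000282% of the library total in DBA/2J and 0.00110 ± 0.000328% in control veins (SD, n = 9 and n = 5).

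**Figure D4:**
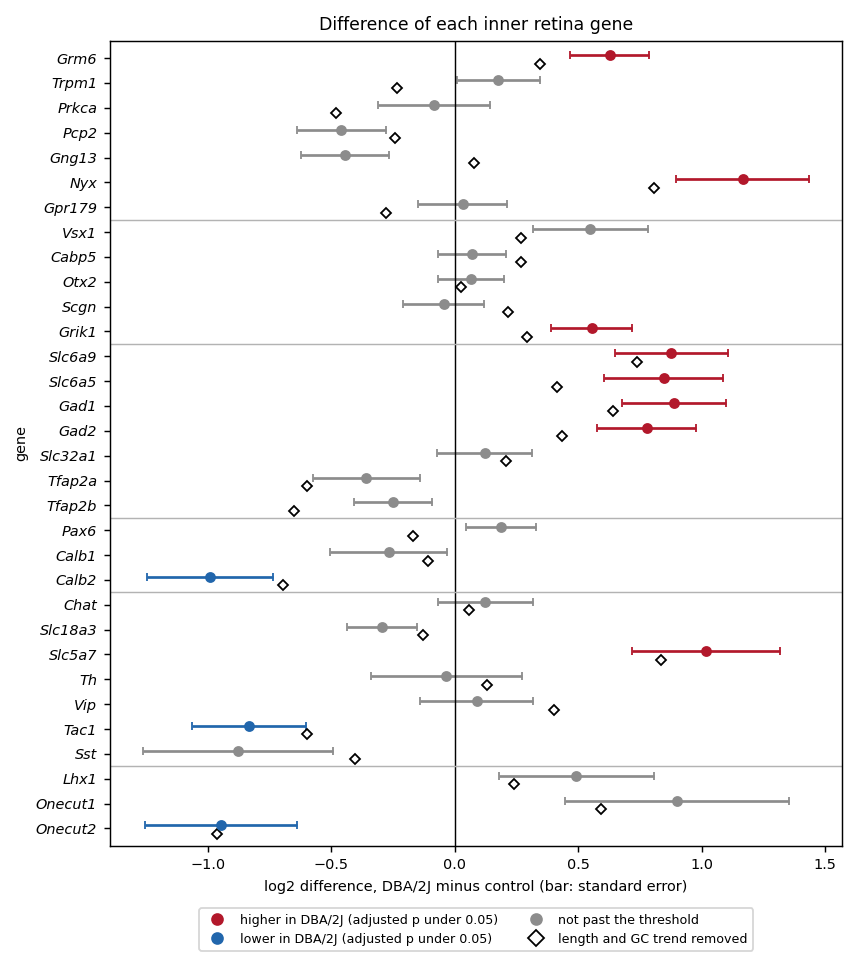
Log2 difference of each of the 32 genes, DBA/2J minus control, with its standard error (filled circles; red rose, blue fell, grey did not pass), and the same difference with the length and GC trend removed (open diamonds). The diamonds of all 8 genes that rose lie left of their circles, between 0.29 and 0.84, and those of Nyx, Slc6a9, Gad1, Slc5a7 and Onecut2 still passed the threshold.

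Per kilobase of longest transcript, levels differed widely between the genes. The highest were Gng13 at 5519 scaled counts per kilobase in DBA/2J and 7571 in control veins, Calb2 at 4638 in DBA/2J and 8709 in control veins, and Pcp2 at 2972 in DBA/2J and 4152 in control veins. Cabp5, Pax6 and Otx2 followed at 1196, 1048 and 1039 in DBA/2J, against 1137, 914 and 987 in control veins. Among amacrine genes, Slc6a9 and Gad1 stood far above Slc32a1, at 975, 867 and 86.0 in DBA/2J, against 545, 479 and 79.7 in control veins. Onecut2, the longest transcript, was lowest in DBA/2J at 4.94, against 9.62 in control veins, where Lhx1 at 6.16 was lowest.

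Differences of the 32 genes went with transcript length, as they did over coding genes at the level of the 32 or above. Of the 8 genes with a longest transcript under 2000 nucleotides, 1 had a positive and 7 a negative difference, with a median of -0.45. Of the 24 longer genes, 18 were positive and 6 negative, with a median of 0.18. The 8 genes that rose had transcripts of 3479 to 7065 nucleotides, median 4755. Over those coding genes in 10 length bins, the median difference was -0.47 in the shortest bin (204 to 1424 nucleotides). It was 0.53 in the ninth (5363 to 6943 nucleotides) and 0.42 in bin 10, the longest. The slope of a library's values on log2 length ran from -0.0786 to 0.295 in DBA/2J and from -0.404 to -0.101 in control libraries, with control sample 3 the lowest. Against the median of its own length bin, Onecut2, Calb2 and Tac1 stood below and Nyx, Gad1 and Slc6a9 above.

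**Figure D5:**
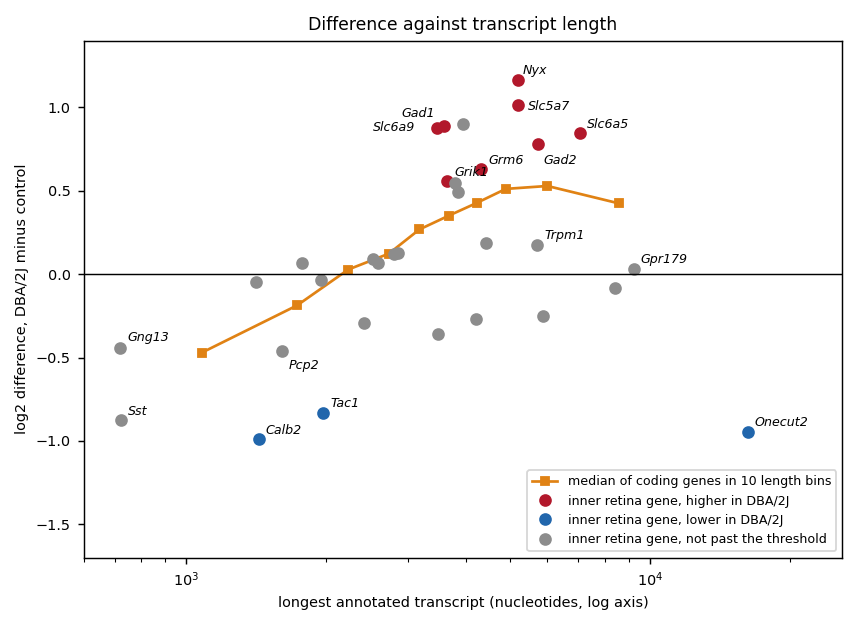
Log2 difference, DBA/2J minus control, of the 32 genes against longest annotated transcript (log axis), with the median of coding genes in 10 length bins as an orange line. The line runs between -0.47 and 0.53, the 8 genes that rose lie above it, and Calb2, Tac1 and Onecut2 lie below it.

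Single libraries weighed on these values. DBA/2J sample 6 was the highest of all 14 libraries for 10 of the 32 genes and the highest of its group for 14. Control sample 4 was the lowest of all 14 for 8 genes, and control sample 3 was the highest for 6 and the lowest for 6. Without control sample 3, 5 of the 32 rose and 1 fell. With controls 4 and 5 alone, 1 rose and 2 fell. With the mean of the lens markers as a covariate, 0 of the 32 passed by limma, 7 were higher and 0 lower at an unadjusted p under 0.05, and 12 of all genes passed. The groups did not overlap in lens level, so that level and strain cannot be told apart. With the mean of the rod markers as a covariate, all 11 genes still passed. Over the 28 alternatives run, the adjusted p of Gad1 lay between 0.00368 and 0.232, that of Nyx between 0.00327 and 0.362, and the highest of any of the 11 was that of Calb2 with the lens covariate (0.931).

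Further genes of the same cells were taken from lists of 63 symbols, of which 62 were tested, 11 rose (17.7%) and 2 fell (3.23%), with a median of 0.26. The shares over coding genes at the level of the 32 or above were 21.7% and 9.09%, so the further genes did not stand above that background. Of 7 further genes of the mGluR6 cascade, 2 rose. They were Rgs9bp, an anchor of RGS9 in photoreceptors, by 1.11 (adjusted p = 0.0118, limma) and Lrit3, a partner of nyctalopin, by 1.06 (adjusted p = 0.0278), both named after their values were seen. With the length and GC trend removed, Lrit3 still passed (1.04, adjusted p = 0.0421) and Rgs9bp did not (0.68, adjusted p = 0.0747). Gnb3, a G protein beta subunit gene of ON bipolar cells and cones, ranged from 8091 to 26490.0 in DBA/2J and from 8012 to 10749.9 in the controls. It did not pass (0.53, adjusted p = 0.101, limma), but passed as higher with the length and GC trend removed (0.77, adjusted p = 0.0267).

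Among 18 further bipolar genes, 4 rose and 14 did not pass, with Strip2 at 1.01 (SE 0.21, adjusted p = 0.00453) and Prdm8, a factor gene needed for rod bipolar survival, at 0.69 (SE 0.16, adjusted p = 0.00733). With the length and GC trend removed, Strip2 still passed (0.63, adjusted p = 0.0256) and Prdm8 did not (0.36, adjusted p = 0.125).

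Of 24 further amacrine genes, 3 rose and 1 fell. Prdm13, a factor gene of GABAergic and glycinergic amacrine subtypes, ranged from 409 to 934 in DBA/2J and from 235 to 421 in the controls and rose by 0.85 (SE 0.20, adjusted p = 0.00803, limma), a rise that passed with the length and GC trend removed (0.85, adjusted p = 0.0127). Npy, the neuropeptide Y gene, ranged from 271 to 815 in DBA/2J and from 538 to 1442 in the controls and fell by 1.09 (SE 0.25, adjusted p = 0.00727, limma), but did not pass with the trend removed (-0.64, adjusted p = 0.0676). Of 5 further horizontal cell genes, 1 rose and 1 fell, against the same shares of coding genes. The neurofilament gene Nefm, also a ganglion cell marker, fell by 1.10 (SE 0.38, adjusted p = 0.0473, limma). That call was lost in 11 of 14 fits with 1 library left out, namely those without 1 of the controls or 1 of DBA/2J samples 4 to 9 (adjusted p up to 0.116), and with the length and GC trend removed (-1.26, adjusted p = 0.0527). Nefl, its partner, ranged from 1467 to 14945 in DBA/2J and from 5402 to 9143 in the controls (-0.09, adjusted p = 0.903).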

How the data were processed

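Retinal vein RNA of 9 DBA/2J and 5 control mice (about 100 pg per sample, RIN above 9) was amplified with SMART-Seq v4, made into Nextera XT libraries and sequenced on an Aviti instrument, per the labels' protocols. The deposited table holds 1 signal value per gene and library, called scaled count here: from the values, these are kallisto estimated reads that the authors divided by a factor per library. The origin of these factors and the summing of transcripts to genes are not given in the sources used here. GRCm38 and GENCODE M23 stand in the series design text, but GRCm39 stands beside kallisto and sleuth in the submitters' processing notes, which leaves the build unsettled.

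Scaled totals ran from 14836190 to 22193399. Between 19 and 22% of values in a library were whole reads within 0.01, so whole reads were not recovered and no count test was run. Of 40149 lines, 26 with symbols turned into dates (at most 0.201% of a library) were left out. Of 40123 symbols, 39019 matched GENCODE M21 (GRCm38), which gave coordinates and lengths. The test was limma's moderated test with a mean trend (limma 3.58.1, R 4.3.3), two-sided, on log2(value + 1) of every gene that reached 1 in 5 or more libraries, with strain as the only term and Benjamini-Hochberg adjustment over all genes at 0.05. Fold changes are on that scale, which understates those of low genes. The length and GC trend was a spline with 5 degrees of freedom per library.

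The 32 genes and all lists were chosen with earlier results of these data known. The values of every control library, with the lowest, median and highest of DBA/2J, are given for genes past the threshold and, in each class, for up to 3 more of highest mean, and the other genes are given by their ranges. Of the further genes, named are at most 4 per direction with the lowest p and 2 not passing of highest mean. A result that this rule names is not reported here. In simulated data (29166 genes, 200 changed), 63% of 2-fold and 95% of 4-fold changes passed, and unchanged genes made up 5.39% of calls. The simulated noise was independent between genes and held no length trend, and no low gene was changed. These rates therefore need not hold for the data or for low genes. Same-numbered samples of the groups did not deviate together. Where counting ignores strand, reads of genes overlapping on opposite strands, such as Gad1 and Gad1os, cannot be told apart. Alternatives covered pseudocounts, filters, scaling, the trend, covariates, weights, control subsets and each library left out.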

Additional observations from a re-analysis of the deposited data

Results flagged for a closer look

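There were 64 sets of values, 1 for each of the 32 genes in each group. In 7 of them, 1 library stood far from the rest of its group by Dixon's test on scaled counts, not on their log2. Chance alone gives this in about 1 in 20 sets of independent, normally distributed values. The sets here share the same 14 libraries, so their count cannot be held against that rate. DBA/2J sample 6 was high for 4 amacrine genes. It held 4894 scaled counts of Gad1, against 2182.2 to 3417 in the other DBA/2J libraries. For Gad2 it held 1674, against 675 to 1109.9. For Slc6a5 it held 418, against 139 to 272. For Tfap2b it held 1615, against 919 to 1217. The calls of Gad1, Gad2 and Slc6a5 were kept without this library. Sample 6 was also the most deeply sequenced, at 33851575 estimated reads.

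DBA/2J sample 8 was high for Th, at 357 scaled counts against 80.2 to 164 in the other DBA/2J libraries, and for Sst, at 1148 against 158 to 453. Control sample 4 was low for Scgn, at 401 against 581 to 622 in the other controls. The causes were not tested.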

How the results depend on the processing

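Against 8 genes of the 32 higher and 3 lower, quantile normalization gave 5 higher, removal of the length and GC trend 4, the lens mean as a covariate 0 higher and 0 lower (limma; 7 and 0 at an unadjusted p under 0.05), controls 1 to 3 alone 5 and 1, controls 4 and 5 alone 1 higher, and the ganglion mean as a covariate, added after the data were seen, 3 and 0 (9 and 6 unadjusted). Leaving out 1 library gave 5 to 9 higher and 1 to 5 lower. Of all genes, 5619 passed, 12 with the lens covariate, 3707 with controls 1 to 3, 2446 with controls 4 and 5, 2633 with the ganglion covariate and 3530 to 6315 with 1 library left out, the lowest without control sample 3. Quantile normalization gave 2740 higher and 2868 lower, against 3518 and 2101. Of the further genes 13 passed, 7 after trend removal, 0 with the lens covariate (13 unadjusted) and 6 with controls 4 and 5.

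Replicate numbers are shared labels only: correlations of same-numbered deviations were -0.0824, -0.00145, -0.0591, 0.0154 and -0.0217. With the replicate block, which leaves DBA/2J samples 6 to 9 without partners, 4 of the 32 were higher and 1 lower, 2465 of all genes and 8 further genes passed.

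Pseudocounts of 0.1 and 5, the stricter filter, median-of-ratios factors and the rod covariate kept all 11 calls. Array weights or no filter lost Onecut2. Signs turned only for genes that did not pass, apart from Nefm (0.077 with the lens covariate). After trend removal these were Trpm1 (-0.23), Gng13 (0.080), Gpr179 (-0.28), Scgn (0.22), Pax6 (-0.17) and Th (0.13). With the lens covariate they were Gpr179 (-0.20), Scgn (0.13), Tfap2b (0.037), Calb1 (0.52) and Nefl (1.32), and with the ganglion covariate Gpr179 (-0.033), Calb1 (0.072) and Nefl (0.96). The block turned Gpr179 (-0.024) and Nefl (0.64), controls 1 to 3 Prkca (0.13) and Otx2 (-0.013), controls 4 and 5 Scgn (0.12) and Th (0.43), quantile normalization Gpr179 (-0.023), Slc32a1 (-0.058) and Vip (-0.096), and median-of-ratios factors Gpr179 (-0.019). With 1 library left out, ranges crossed 0 for Prkca (-0.26 to 0.13), Gpr179 (-0.092 to 0.15), Scgn (-0.16 to 0.00235), Th (-0.27 to 0.10), Vip (-0.073 to 0.28) and Nefl (-0.25 to 0.17). The causes were not tested. Depth limits Onecut1 and Lhx1 most.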

Other observations

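Within the GABAergic class, the balance of the 2 synthesis genes differed by less than the spread between libraries. The log2 ratio of Gad1 to Gad2 was 1.63 ± 0.17 in DBA/2J (SD, n = 9) and 1.52 ± 0.27 in control libraries (SD, n = 5). The log2 ratio of Gad1 to the vesicular transporter gene Slc32a1 was 3.69 ± 0.35 in DBA/2J and 2.92 ± 0.63 in control libraries, with overlap. Muller glia markers, another inner retina class, held 4 rises among 9 genes and 5 that did not pass, where 12.1% of all genes tested and 21.7% of coding genes at the level of the 32 or above rose, among them Aqp4, the glial water channel gene, by 1.71 (SE 0.25, adjusted p = 0.000509, limma). Of 5 astrocyte markers, 1 rose and 1 fell, with a median of 0.64, where 12.1% of all genes rose and 7.2% fell. Their summed scaled counts ran from 5687 to 36396 in DBA/2J and from 3449.5 to 11894 in control libraries. The astrocyte factor gene Pax2, at low means of 16.2 in DBA/2J and 13.4 in control veins, did not pass (0.24, adjusted p = 0.771).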
